A study of Mus musculus with 6 samples.

Results

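The 10 genes described here encode the enzymes of lower glycolysis, from aldolase to lactate dehydrogenase: Aldoa, Aldoc, Tpi1, Gapdh, Pgk1, Pgam1, Eno1, Eno2, Pkm and Ldha. The rule that chose them is their place in the pathway, and all 10 were found among the 22880 genes of the table and passed the filter on low counts, which left 12014 genes. Expression was measured by RNA-seq in 6 libraries of MC-38GFP cells, a colon adenocarcinoma line of the mouse made to express green fluorescent protein (GFP). The cells were injected into the cecum wall of C57BL/6 J mice, whose age is not given in the sources used here, and were sorted from the resulting orthotopic tumors as GFP-positive cells that stained for neither CD45 nor CD31. In all, 3 Mock libraries were compared with 3 HIF-1α-KD libraries, in which Hif1a, the oxygen-regulated subunit of the transcription factor HIF-1, was knocked down. Cells of both groups had been transduced with pLKO.1-puro, a lentiviral vector for short hairpin RNAs, and had not been passaged in vivo. Whether the knockdown line is a single clone and whether each library came from a separate animal are not stated, so that p-values measure only the spread between these libraries, which may be technical.

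In lower glycolysis a hexose phosphate is split by aldolase, and the resulting triose phosphates are oxidised and rearranged to pyruvate, which lactate dehydrogenase reduces to lactate. Phosphoglycerate kinase and pyruvate kinase are the steps that make ATP, and the lactate dehydrogenase step regenerates the NAD+ that glyceraldehyde-3-phosphate dehydrogenase consumes. Many genes of the pathway are textbook targets of HIF-1, which binds DNA as a dimer of HIF-1α and ARNT at short elements with the core ACGTG or GCGTG, and tumor cells in poorly oxygenated tissue are known for high glycolytic transcript levels.

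A set of 4 promoter windows is shown because it bears on this core: those of Pgk1 and Ldha, with several matches, and those of Tpi1 and Eno2, with none. Each window runs from 250 bases before to 50 bases after a RefSeq transcription start on GRCm38.p6 and is written 5′ to 3′ on the strand of the gene. Capitals mark ACGTG or GCGTG on either strand, so that a match on the opposite strand reads CACGT or CACGC, and the palindrome CACGTG holds a match on each strand. The windows lie at chrX:106186850-106187149 on the plus strand for Pgk1, chr7:46845554-46845853 on the plus strand for Ldha, chr6:124814109-124814408 on the minus strand for Tpi1 and chr6:124769624-124769923 on the minus strand for Eno2.
Pgk1: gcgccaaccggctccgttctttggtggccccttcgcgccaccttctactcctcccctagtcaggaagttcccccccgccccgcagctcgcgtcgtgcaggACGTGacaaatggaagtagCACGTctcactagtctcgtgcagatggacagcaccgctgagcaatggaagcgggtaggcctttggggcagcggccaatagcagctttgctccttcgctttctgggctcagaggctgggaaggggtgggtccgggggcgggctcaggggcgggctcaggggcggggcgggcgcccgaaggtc
Ldha: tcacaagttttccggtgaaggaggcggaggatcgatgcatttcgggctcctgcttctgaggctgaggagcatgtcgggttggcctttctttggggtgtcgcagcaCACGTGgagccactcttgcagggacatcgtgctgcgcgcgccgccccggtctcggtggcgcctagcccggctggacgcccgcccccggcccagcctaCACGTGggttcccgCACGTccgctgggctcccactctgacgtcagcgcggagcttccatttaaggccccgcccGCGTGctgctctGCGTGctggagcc
Tpi1: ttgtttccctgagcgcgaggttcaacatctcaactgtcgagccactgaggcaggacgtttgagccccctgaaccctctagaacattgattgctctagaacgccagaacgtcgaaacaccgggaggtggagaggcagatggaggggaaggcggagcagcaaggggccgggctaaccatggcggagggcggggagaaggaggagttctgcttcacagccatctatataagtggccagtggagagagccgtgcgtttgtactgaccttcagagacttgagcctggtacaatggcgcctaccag
Eno2: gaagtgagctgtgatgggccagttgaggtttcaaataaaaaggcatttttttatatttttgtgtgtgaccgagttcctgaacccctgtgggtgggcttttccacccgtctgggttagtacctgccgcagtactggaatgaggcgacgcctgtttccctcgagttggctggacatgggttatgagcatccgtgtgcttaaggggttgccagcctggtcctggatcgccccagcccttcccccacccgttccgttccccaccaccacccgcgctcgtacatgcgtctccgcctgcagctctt

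The Pgk1 window held 2 matches, at bases -150 to -146 and -131 to -127 from the start. The Ldha window held 5 places with a match, of which 3 lay before the start and 2 after it, and 2 of those before it were the palindrome. Over the 17 RefSeq windows of the 10 genes, several of which overlap because a gene has neighbouring starts, 13 (76.5%) held either motif, against 43.8% of 32851 windows of all genes. Windows of these genes were rich in G and C, with a median of 61.3% against 52.7% of bases, and among the 16762 windows of all genes with at least the lowest GC content of the 10 genes the share was 60.6%. By gene, 8 of 10 had a match in at least 1 window, against 46.7% of 27025 genes, and the genes without one were Tpi1 and Eno2. The 10 genes have more windows each (17 for 10 genes) than all genes do (32851 for 27025), which raises a share by gene. For ACGTG alone, 8 of the 17 windows (47.1%) held a match, against 19.6% of all windows and 24.5% of those with at least the lowest GC content of the 10 genes. A match describes the letters of the window only.

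The knockdown was checked first. For Hif1a the normalized counts were 6914, 5424 and 4945 in Mock 1, 2 and 3 and 697.3, 3142 and 1928 in HIF-1α-KD 1, 2 and 3, a log2 fold change of -1.82 ± 0.46 (SE) with an adjusted p of 0.219 by limma. The level of Hif1a RNA left after the knockdown differed between its libraries, and HIF-1α-KD 1 was the lowest. Car9, a carbonic anhydrase and a target of HIF-1, had 4470, 3382 and 4356 in Mock against 212.3, 663.1 and 1041 in HIF-1α-KD, and its log2 fold change of -2.93 ± 0.49 had an adjusted p of 0.0553. For both genes every HIF-1α-KD value lay below every Mock value, and neither passed an adjusted p of 0.05 in limma or edgeR, whereas DESeq2 called 1 of them, Car9. A normalized count is the number of reads of a gene divided by a factor for its library, and libraries held 19845838 to 30809238 reads on genes.

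At nearly every step of lower glycolysis the transcript level in HIF-1α-KD cells lay below that in Mock cells. Of the 10 genes, 6 fell at an adjusted p under 0.05 in the limma fit over all genes tested, namely Aldoa, Tpi1, Gapdh, Pgk1, Pgam1 and Ldha, and the same rule called 0.383% of all genes lower. In 9 of 10 genes, all but Eno2, the highest HIF-1α-KD library lay below the lowest Mock library, against 8.75% of all genes. The same 9 genes met an unadjusted p under 0.05 with a fold change of at least 1.5, which 3.46% of all genes met in that direction. The median log2 fold change was -1.08 over the 10 genes and 0.02 over all genes tested. In bulk samples fewer cells of a type and less RNA per cell cannot be told apart. The number of genes past an adjusted p of 0.05 depended on single libraries: it was 0 without Mock 1, Mock 3, HIF-1α-KD 2 or HIF-1α-KD 3, 1 without Mock 2 and 4 without HIF-1α-KD 1, with limma adjusted p of the 6 genes between 0.0402 and 0.141, and the median log2 fold change was between -1.13 and -1.03 in each of these fits. With all libraries the number past an adjusted p of 0.05 was 0 in limma without a mean-variance trend and 3 without the low-count filter.

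**Figure D1:**
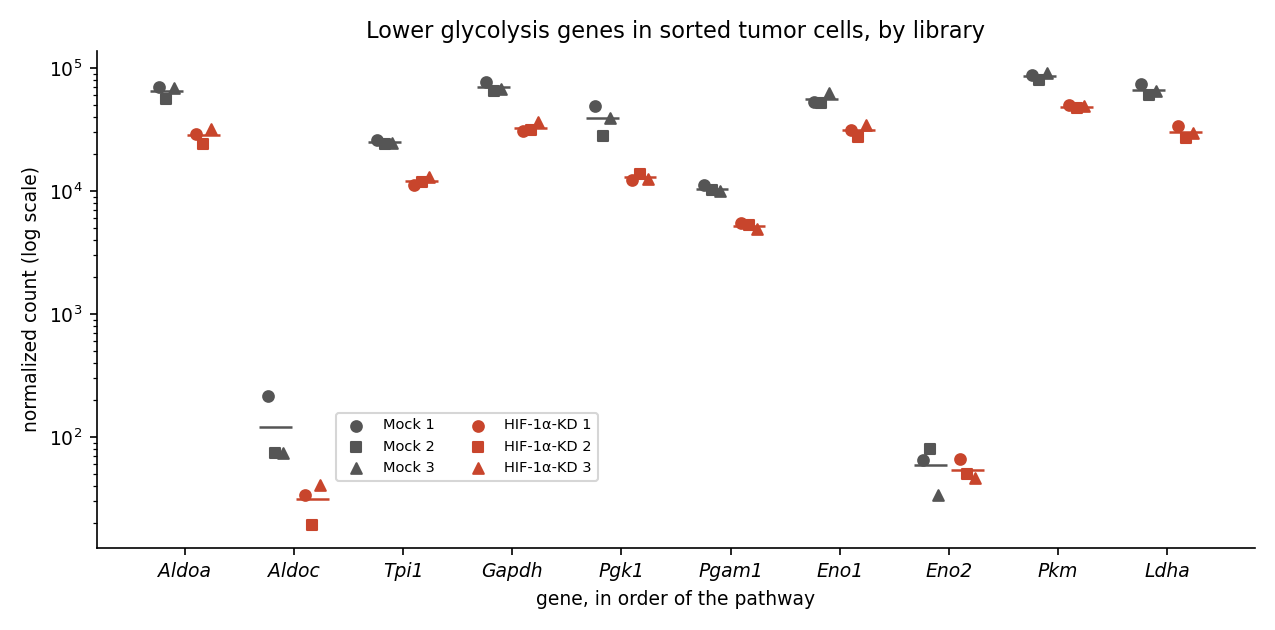
Normalized counts of the 10 genes on a log scale, in the order of the pathway, with Mock libraries in grey and HIF-1α-KD libraries in red; symbols mark the replicate number and lines the group means. The groups are apart for every gene except Eno2, and Aldoc and Eno2 lie far below the other 8 genes.

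Aldolase splits fructose-1,6-bisphosphate into a pair of triose phosphates, and Aldoa is its form in muscle and most dividing cells. Aldoa (ENSMUSG00000030695, GRCm38 chromosome 7, 126795234 to 126800751, minus strand) had 70270, 56360 and 69530 normalized counts in Mock 1, 2 and 3 and 29210, 24300 and 31680 in HIF-1α-KD 1, 2 and 3. Mock 2 was the lowest Mock library and still lay 1.78-fold above HIF-1α-KD 3, the highest of its group. Aldoa fell by 1.21 on the log2 scale (SE 0.17, 95% confidence interval -1.59 to -0.82, limma adjusted p 0.0281), to 43.4% of its Mock level. Aldoc (ENSMUSG00000017390, chromosome 11, 78322968 to 78327781, plus strand) is the aldolase best known from brain, and it had 216.7, 74.64 and 73.68 in Mock against 33.78, 19.19 and 40.43 in HIF-1α-KD. Its groups did not overlap, but Mock 1 stood 2.94-fold above the lowest Mock library. The log2 fold change of Aldoc was -1.80 ± 0.49 (SE, interval -2.92 to -0.68) with an adjusted p of 0.245 by limma, and it was -1.29 without Mock 1.

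Tpi1 encodes triosephosphate isomerase, which interconverts the products of aldolase. Tpi1 (ENSMUSG00000023456, chromosome 6, 124810586 to 124814296, minus strand) had 26220, 24340 and 24710 in Mock against 11110, 11920 and 13090 in HIF-1α-KD. Both groups were tight, the highest library of a group being 1.08 times the lowest in Mock against 1.18 times in HIF-1α-KD. Tpi1 fell by 1.06 on the log2 scale (SE 0.13, interval -1.37 to -0.76, limma adjusted p 0.0242). Its window shown above held no match to the core, and a link between matches and changes was not tested.

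Gapdh encodes glyceraldehyde-3-phosphate dehydrogenase, the oxidation step, and is in wide use as a reference gene in qPCR. Gapdh (ENSMUSG00000057666, chromosome 6, 125161715 to 125166467, minus strand) had 77040, 65200 and 67620 in Mock against 30630, 31220 and 36470 in HIF-1α-KD. The lowest Mock library was 1.79 times the highest HIF-1α-KD library. Gapdh fell by 1.10 on the log2 scale (SE 0.15, interval -1.44 to -0.75, limma adjusted p 0.0281), to 46.8% of Mock.

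Pgk1 encodes phosphoglycerate kinase, the first ATP-forming step. Pgk1 (ENSMUSG00000062070, chromosome X, 106187100 to 106203699, plus strand) had 49380, 28060 and 39370 in Mock against 12330, 13840 and 12630 in HIF-1α-KD. The spread was wide in Mock, where the highest library was 1.76 times the lowest, and narrow in HIF-1α-KD, where it was 1.12 times. Pgk1 fell by 1.55 on the log2 scale (SE 0.21, interval -2.02 to -1.08, limma adjusted p 0.0245), to 34.1% of Mock. Among the abundant genes of the pathway this estimate was the lowest.

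Pgam1 encodes phosphoglycerate mutase, which moves the phosphate from carbon to carbon ahead of enolase. Pgam1 (ENSMUSG00000011752, chromosome 19, 41911923 to 41918660, plus strand) had 11220, 10160 and 9955 in Mock against 5536, 5301 and 4897 in HIF-1α-KD. Pgam1 fell by 0.99 on the log2 scale (SE 0.13, interval -1.29 to -0.70, limma adjusted p 0.0242), to 50.2% of Mock, and its libraries were close together within each group.

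Enolase forms phosphoenolpyruvate, and Eno1 is its widespread form. Eno1 (ENSMUSG00000063524, chromosome 4, 150236721 to 150248879, plus strand) had 52780, 52020 and 63000 in Mock against 31650, 27310 and 34530 in HIF-1α-KD. The groups did not overlap, with a gap of 1.51-fold that was the smallest of the 9 genes so separated. The log2 fold change of Eno1 was -0.85 ± 0.16 (SE, interval -1.21 to -0.48) with an adjusted p of 0.107 by limma. Eno2 (ENSMUSG00000004267, chromosome 6, 124760053 to 124769673, minus strand) encodes the enolase of neurons and had 65.25, 80.39 and 33.82 in Mock against 65.95, 50.36 and 46.2 in HIF-1α-KD. The Eno2 groups overlapped fully, with HIF-1α-KD inside the range of Mock. Its log2 fold change of -0.07 ± 0.39 (SE, adjusted p 0.954 by limma) had an interval from -0.96 to 0.81, which at counts this low leaves room for a change in either direction, and its sign turned when Mock 1, Mock 2 or HIF-1α-KD 3 was left out (0.04, 0.18 and 0.03).

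Pkm encodes the muscle-type pyruvate kinases, the later ATP-forming step. Pkm (ENSMUSG00000032294, chromosome 9, 59656368 to 59679375, plus strand) had 87060, 79480 and 90630 in Mock against 49820, 47300 and 48950 in HIF-1α-KD. The HIF-1α-KD libraries were within 1.05-fold of each other and lay below every Mock library. The log2 fold change of Pkm was -0.81 ± 0.15 (SE, interval -1.15 to -0.48) with an adjusted p of 0.0827 by limma. The table counts the gene as a whole, so that the M1 and M2 splice forms of Pkm were not separated. Of the 4 splicing factors listed for the choice of Pkm exons, 0 passed an adjusted p of 0.05 and 0 an unadjusted p of 0.05 in limma, edgeR or DESeq2. In limma 0.383% of all genes were lower at that adjusted p, so that 0 of 4 is near that share. Ptbp1, the highest by mean FPKM in Mock, had a log2 fold change of 0.08 (limma adjusted p 0.883).

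Ldha encodes the A subunit of lactate dehydrogenase, the step from pyruvate to lactate. Ldha (ENSMUSG00000063229, chromosome 7, 46841475 to 46855627, plus strand) had 73780, 60480 and 65490 in Mock against 33920, 26920 and 29410 in HIF-1α-KD. In both groups replicate 1 was the highest, and the lowest Mock library was 1.78 times the highest HIF-1α-KD library. Ldha fell by 1.15 on the log2 scale (SE 0.16, interval -1.51 to -0.79, limma adjusted p 0.0281), to 45.1% of Mock.

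**Figure D2:**
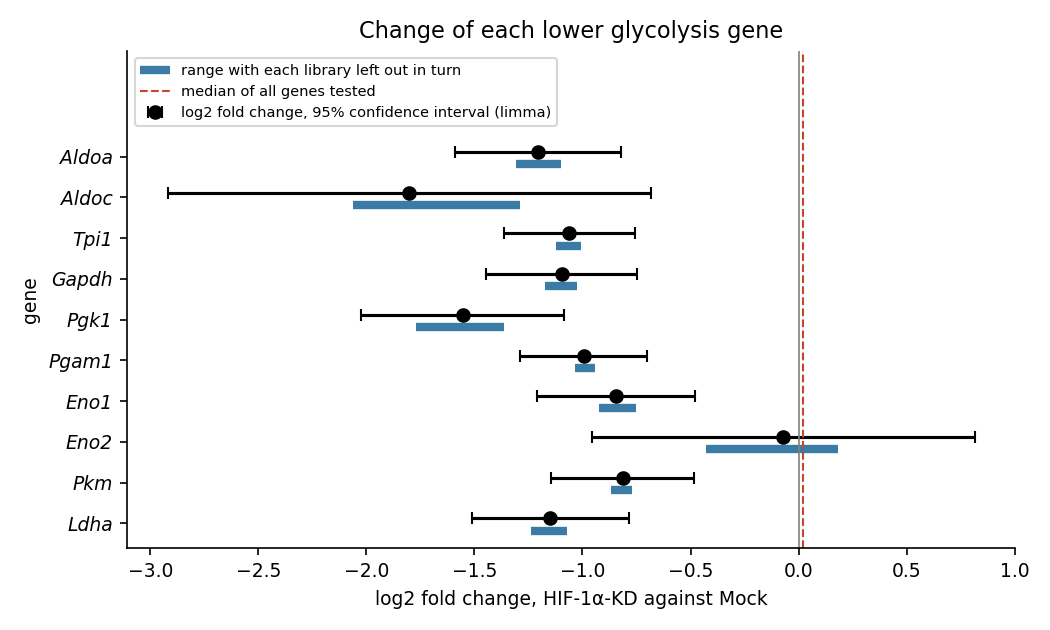
Log2 fold change of each gene, HIF-1α-KD against Mock, as points with 95% confidence intervals from limma; blue bars span the values with each library left out in turn, and the dashed line is the median of all genes tested (0.02). The intervals of 9 genes lie below 0, and only that of Eno2 includes it.

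Sizes of change were compared between genes within libraries, as the log2 ratio of each pair, for 45 pairs. In 15 pairs the ratios of the groups did not overlap, which gave the smallest two-sided p that an exact permutation test of 3 against 3 libraries allows, 0.1, and 0.3 after adjustment over the 45 pairs, so that no pair could pass the threshold. The pairs without overlap included Pgk1 against Pkm, with a difference of -0.74 in log2 fold change, Pgk1 against Eno1 (-0.71), Pgk1 against Pgam1 (-0.56) and Gapdh against Pkm (-0.28). Pgk1 and Gapdh overlapped, with a difference of -0.46 (exact permutation p 0.2). Tpi1 and Gapdh differed by 0.03 (exact permutation p 0.6).

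The order of libraries within a group was partly shared between genes. Mock 1 was the highest Mock library for 7 of 10 genes and Mock 2 the lowest for 7. Among HIF-1α-KD libraries the lowest was HIF-1α-KD 2 for 5 genes, HIF-1α-KD 1 for 3 and HIF-1α-KD 3 for 2, so that the library with the least Hif1a RNA was not the lowest for most genes of the pathway. The mean of the centred log2 values over the 10 genes was 0.74, 0.41 and 0.43 in Mock against -0.47, -0.65 and -0.46 in HIF-1α-KD. Pearson correlations of single genes with this mean, over the 6 libraries and carried by the group difference, were 0.936 to 0.991 for 9 genes and 0.139 for Eno2.

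On the FPKM scale, which divides reads by gene width and library total, 8 of the 10 genes ranked between 19 and 454 among all genes in Mock. Aldoc and Eno2 ranked far lower. The order between genes depends on the deposited widths, among them 934 bases for Eno1, 946 for Gapdh and 2430 for Pkm, which were not checked. By mean normalized count in Mock, without division by width, Pkm (85720) lay above Gapdh (69950). In Mock the mean FPKM was 2948 for Gapdh, 2844 for Ldha, 2433 for Aldoa, 2388 for Eno1, 1406 for Pkm, 1371 for Tpi1, 1073 for Pgk1, 227.7 for Pgam1, 4.15 for Aldoc and 2.06 for Eno2. Neighbours in this order whose ranges overlapped were Gapdh and Ldha, Aldoa and Eno1, Pkm and Tpi1, Tpi1 and Pgk1, and Aldoc and Eno2. In HIF-1α-KD the order was Gapdh (1439), Eno1 (1385), Ldha (1336), Aldoa (1101), Pkm (831.5), Tpi1 (685.2), Pgk1 (372.9), Pgam1 (118.9), Eno2 (1.92) and Aldoc (1.11). Here Gapdh, Eno1, Ldha and Aldoa overlapped from neighbour to neighbour, and the other neighbours did not. Eno1 thus moved from place 4 to place 2, and Gapdh went from rank 19 to rank 62 and Pgk1 from rank 114 to rank 276 among all genes by mean FPKM.

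The 10 genes together made up 2.08%, 1.96% and 2.01% of the summed FPKM in Mock 1, 2 and 3 and 1.02%, 0.990% and 1.14% in HIF-1α-KD 1, 2 and 3. The means were 2.02% ± 0.06 and 1.05% ± 0.08 (SD, n = 3 each, exact permutation p 0.1, the smallest possible), so that the HIF-1α-KD share was 52.1% of the Mock share. Without Gapdh, the highest of them by mean FPKM, the share was 1.61% in Mock against 0.843% in HIF-1α-KD. By reads on genes, the share was 1.67% in Mock against 0.836% in HIF-1α-KD.

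**Figure D3:**
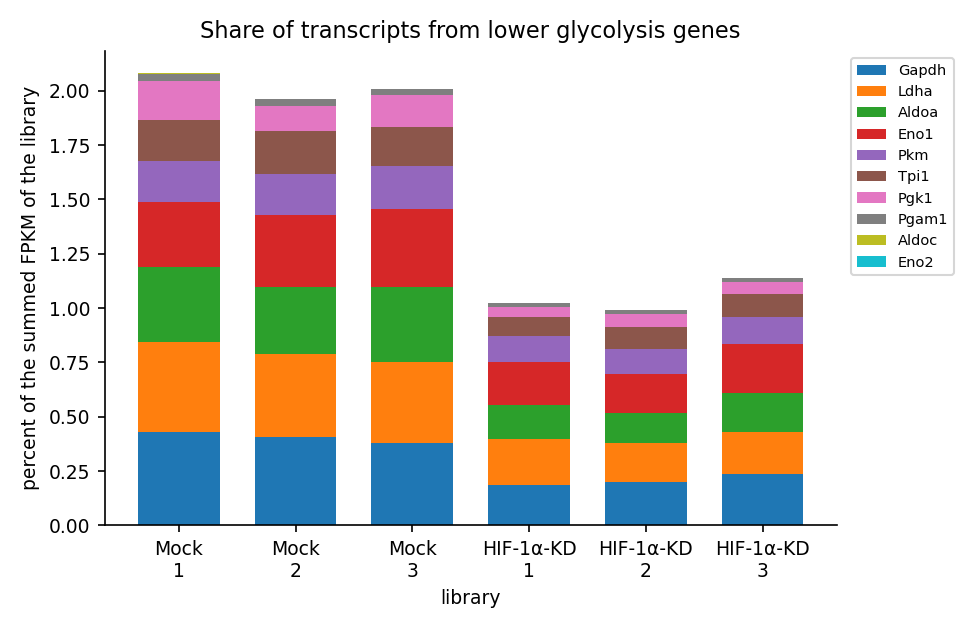
Stacked bars of the share of each of the 10 genes in the summed FPKM of a library, in percent, with the Mock libraries on the left. Mock bars reach 1.96% to 2.08% and HIF-1α-KD bars 0.990% to 1.14%; Aldoc and Eno2 are too thin to see.

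Of the 10 genes, 2 are minor isozymes of a step that another gene dominates. Aldoc was 0.284%, 0.122% and 0.0977% of the FPKM of Aldoa plus Aldoc in Mock against 0.107%, 0.0728% and 0.118% in HIF-1α-KD, and the log2 ratio of counts differed by -0.60 between groups (exact permutation p 0.4). Eno2 was 0.0986%, 0.123% and 0.0428% of Eno1 plus Eno2 in Mock against 0.166%, 0.147% and 0.107% in HIF-1α-KD, and the log2 ratio differed by 0.77 (exact permutation p 0.2). In both pairs the groups overlapped. Single libraries moved both differences: with each library left out in turn, that of Aldoc over Aldoa ran from -0.90 without Mock 3 to -0.14 without Mock 1, and that of Eno2 over Eno1 from 0.33 without Mock 3 to 1.08 without Mock 2.

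Isozymes outside the list were measured too, and 4 of 16 passed the filter on low counts, among them Ldhb and Eno3; 0 of the 4 passed an adjusted p of 0.05 and 1 an unadjusted p of 0.05 in limma, edgeR and DESeq2 alike. Ldhb, the lactate dehydrogenase subunit of heart, had the highest mean FPKM of them in Mock, and its normalized counts were 1218, 1322 and 1265 in Mock against 2061, 1540 and 2035 in HIF-1α-KD, a log2 fold change of 0.56 ± 0.16 (SE, adjusted p 0.258 by limma). It lay higher in every HIF-1α-KD library, opposite to Ldha. Ldhb was 1.59%, 2.10% and 1.86% of the FPKM of Ldha plus Ldhb in Mock against 5.62%, 5.31% and 6.35% in HIF-1α-KD, and its ratio to Ldha was 3.26-fold higher in HIF-1α-KD (exact permutation p 0.1). Eno3, the enolase of muscle, was named after its values were seen: its log2 fold change was 0.02 (adjusted p 0.972 by limma), and its share of Eno1 plus Eno3 was 0.940% ± 0.051 in Mock against 1.73% ± 0.42 in HIF-1α-KD (SD, n = 3 each, exact permutation p 0.1). With little change in the Eno3 estimate, this share mostly restates the lower level of Eno1. The table lists the testis forms Gapdhs, Pgk2 and Ldhc at 0 reads in all libraries, and a count of 0 allows up to 3 reads in each.

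**Figure D4:**
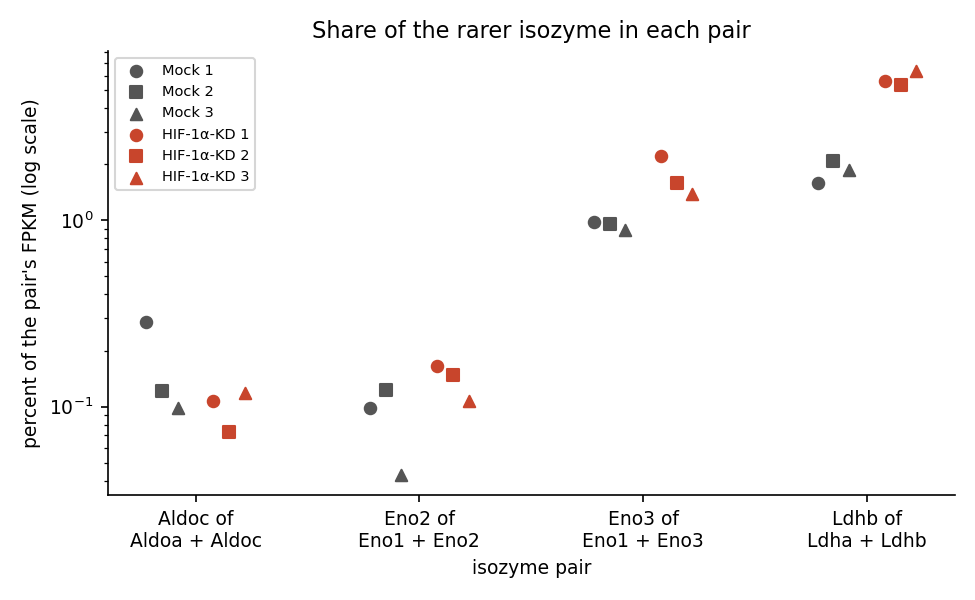
Percent of the FPKM of a pair that comes from its rarer isozyme, on a log scale, for each library. Ldhb and Eno3 shares are higher in every HIF-1α-KD library (Ldhb 5.31% to 6.35% against 1.59% to 2.10%), and the Aldoc and Eno2 shares overlap between groups. The Eno3 share mostly restates the lower level of Eno1.

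The steps around lower glycolysis were counted in the same fit. Of 14 genes tested for glucose entry and upper glycolysis, 3 fell at an adjusted p under 0.05 and 0 rose, with a median log2 fold change of -0.50: Slc2a1, the glucose transporter GLUT1 (-1.83 ± 0.25, adjusted p 0.0254 by limma), Pfkl, the liver-type phosphofructokinase (-1.25 ± 0.18, 0.0298), and Gpi1, glucose-6-phosphate isomerase (-1.10 ± 0.16, 0.0327). Slc2a1 had 11550, 8963 and 17860 in Mock against 3187, 3091 and 4145 in HIF-1α-KD, and the groups were far apart. Among 18 genes of pyruvate and lactate fate 2 fell and 0 rose, with a median of -0.20: Pdk1, a kinase that inhibits pyruvate dehydrogenase (-1.57 ± 0.22, adjusted p 0.0281 by limma), and Slc16a3, the lactate exporter MCT4 (-1.17 ± 0.18, 0.0362). With each library left out in turn, 0 to 1 genes of either list passed. Bsg, the chaperone of lactate transporters and the highest of that list by mean FPKM in Mock, had -0.74 (limma adjusted p 0.155). The median of the 10 lower glycolysis genes, -1.08, was thus below those of both neighbouring lists, and this difference between lists was not tested. The lists are not alike in make-up. Other isozymes of the lower steps were listed apart, with a median of 0.06 over the 4 tested, whereas the upper list keeps minor forms of its steps. Slc2a1, Pfkl, Gpi1, Pdk1 and Slc16a3 each had a log2 fold change below -1.08.

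Side branches were counted in the same way. The 7 genes tested lie mainly on the paths from triose phosphates and 3-phosphoglycerate to glycerol phosphate and serine. Of these, 0 passed an adjusted p of 0.05 and 0 an unadjusted p of 0.05 in limma, edgeR or DESeq2, with a median of 0.08. In limma 0.383% of all genes were lower at that adjusted p, so that 0 of 7 is near that share, and 1529 of 12014 passed the unadjusted p. Psat1, an aminotransferase of serine synthesis and the highest by mean FPKM in Mock, had 0.08 (limma adjusted p 0.855). Pck2, which forms phosphoenolpyruvate outside these paths and was named after its values were seen, lay higher without overlap (0.27, limma adjusted p 0.466).

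Because Gapdh is a common reference gene, 16 such genes outside the pathway were set beside it. Of these, 0 passed an adjusted p of 0.05 in limma and edgeR and 2 in DESeq2, and the median log2 fold change was -0.20. At an unadjusted p of 0.05 in limma, which 1529 of 12014 genes passed in either direction, 0 lay higher and 5 lower, which were Rps12, Rplp0, Rpl13a, Hprt and Eef1a1, named after their values were seen. Eef1a1, a translation elongation factor and the highest by mean FPKM in Mock, had -0.59 ± 0.22 (SE, limma adjusted p 0.337). Relative to Rps12, a ribosomal protein gene chosen, like Actb, with the values known, the log2 ratio of Gapdh was 0.02, 0.19 and -0.13 in Mock against -0.63, -0.42 and -0.35 in HIF-1α-KD, a difference of -0.49 (exact permutation p 0.1). Relative to Actb the difference was -1.03 (exact permutation p 0.1). The Gapdh groups stayed apart against either gene, and the size of the difference depended on the reference.

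**Figure D5:**
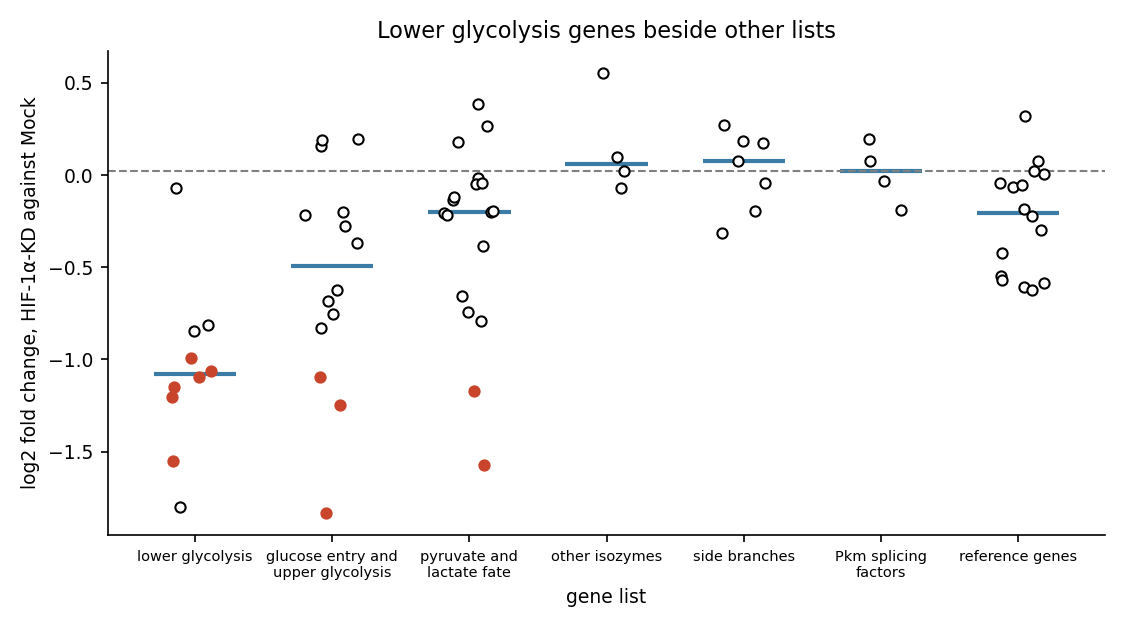
Log2 fold changes of single genes by list, HIF-1α-KD against Mock; filled points passed an adjusted p of 0.05 in limma, blue lines are list medians and the dashed line is the median of all genes tested. Of the 7 lists drawn, the lower glycolysis genes have the lowest median (-1.08), followed by glucose entry and upper glycolysis (-0.50). The lists differ in whether they hold the minor isozymes of their steps.

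Genes beside these on the chromosomes did not show the same pattern. The nearest tested genes on each side came to 19 distinct genes, with log2 fold changes from -0.36 to 0.85 and a median of 0.18. Of these, 0 passed an adjusted p of 0.05 in limma, edgeR or DESeq2, where limma called 0.383% of all genes lower. Lower without overlap were 0, against 8.75% of all genes. Iffo1, Rrp12 and Exosc1, named after their values were seen, lay higher without overlap. Rrp12, beside Pgam1 and named after its values were seen, was the only 1 at an unadjusted p of 0.05 in limma, with a higher level in HIF-1α-KD (0.52 ± 0.23), and edgeR and DESeq2 called 0 at that p. Eno2, Tpi1 and Gapdh lie within 406.4 kb of each other on chromosome 6, in that order, and Eno2 is separated from Tpi1 by 40.9 kb.

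Near-identical copies and overlapping genes limit how firmly some counts belong to 1 gene. Of the 114-base stretches of annotated exon sequence, 114 bases being the longest read left after trimming, 51.0% of those of Pgk1, 33.4% of Pgam1, 20.01% of Gapdh, 19.2% of Eno1 and 10.2% of Pkm also occurred in another annotated gene, and 0% of Aldoa, Aldoc, Tpi1, Eno2 and Ldha. For Pkm, 431 of its 524 shared stretches lie in Gm49759, a gene model that overlaps it on the same strand by 767 exon bases and is not analysed here. The copies that the table holds had few reads assigned, at most 9 for Pgk1-rs7, 15 for Gm3839 of Gapdh and 6 for Eno1b in any library. Such counts cannot show whether a copy is silent, because how reads matching both genes were assigned was not tested. For Gapdh, 70 other annotated genes share stretches, and 1 of them is in the table. Aldoa, Tpi1 and Gapdh each share 25 to 68 exon bases with a gene on the opposite strand, and the strand setting of the counting is not given in the sources used here.

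Markers of other cells were read in the same libraries. The summed FPKM of 5 erythroid genes was 95.6, 43.4 and 83.3 in Mock against 8.77, 0.181 and 39.9 in HIF-1α-KD, all 5 were lower at an unadjusted p of 0.05 and 0 at an adjusted p of 0.05 in limma (0 in edgeR, 1 in DESeq2), and their part in the results was not tested. Leukocyte markers, 10 genes, summed to 100.1 to 109.8 in Mock and to 67.6, 79.96 and 370.7 in HIF-1α-KD, and the T cell marker Cd3e had at most 3 reads in every library. Fibroblast and mural markers summed to 543.5 to 966.9 in Mock against 413.6 to 700.6 in HIF-1α-KD, and endothelial markers to 7.27 to 9.44 and 6.42 to 10.2. The fibroblast sum was mostly Dcn, a matrix proteoglycan (mean FPKM 618.2 in Mock and 485.0 in HIF-1α-KD). Within the fibroblast and mural list 0 of 6 tested genes passed an adjusted p of 0.05 in limma, edgeR or DESeq2, and 2 passed an unadjusted p of 0.05 in limma, Rgs5 (log2 fold change 1.15 ± 0.40) and Pdgfrb (0.59 ± 0.25), while 2 of the 6, Dcn (-0.38) and Lum (-0.16), were below 0. Within the endothelial list 0 of 4 tested genes passed an adjusted p of 0.05 in the same tools and 1 an unadjusted p of 0.05 in limma, Cdh5 (-0.84 ± 0.27), while Tek (1.26), Eng (0.68) and Pecam1 (0.26) were above 0. Over all genes, 1529 of 12014 passed that unadjusted p. The part of these markers in the results was not tested. The 8 colon epithelium markers were low, summing to 1.38 to 14.6 in Mock against 1.65 to 3.13 in HIF-1α-KD, and the intestinal factor Cdx2 had at most 3 reads in every library, so that the labelled colon origin was not visible in these markers.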

How the data were processed

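RNA was taken from sorted MC-38GFP tumor cells in 6 libraries, 3 Mock and 3 HIF-1α-KD, grouped by the knockdown given in the labels. According to the methods, libraries were made with a stranded poly-A kit and read single-end, and reads were trimmed (5 bases at the start, 6 at the end of 125), aligned with STAR, counted with featureCounts and tested with DESeq2. The methods name GRCh38, whereas the submitters' processing notes name GRCm38, STAR and edgeR, and the identifiers are mouse.

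A single table of 22880 genes was deposited. It gives a signal per gene and library, the normalized count, for which the authors scaled reads by a factor of the library. The authors also deposited FPKM values, scaled by gene width and library total. The deposited log2 ratio, p-value and false discovery rate hold the authors' own comparison and were not used, and the deposited GC fraction and width of each gene describe the gene. Whole reads were recovered from the steps of the normalized counts: 100% of values up to 300 reads came out whole, within 0.05 reads or a relative 0.001. Values above this carry 4 digits, so that totals are approximate.

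Genes were kept by filterByExpr of edgeR 4.0.16 on recovered reads (minimum count 10, by group), which left 12014. The main test was limma 3.58.1 on log2(normalized count + 1) with its variance prior following the mean, two-sided, without a replicate block, adjusted by Benjamini-Hochberg over all genes tested, and fold changes refer to that scale. Single values used an exact two-sided permutation test over 6 libraries. On recovered reads the quasi-likelihood test of edgeR called 47 genes lower and 0 higher, and DESeq2 1.42.0 called 187 lower and 96 higher. Other scalings, pseudocounts and filters, the replicate block and leaving out each library were alternatives. The fits were tested on simulated data. Promoter windows came from RefSeq (GRCm38.p6) and matched 10 of 10 genes, and positions came from GENCODE M21.

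The genes and lists were chosen with earlier results of these data known. Named were the 10 genes, Hif1a, Car9, genes of each other list at an adjusted p under 0.05 (at most 6) with its gene of highest mean FPKM in Mock, the 6 genes with the most similar profile, neighbouring genes at an adjusted p under 0.05, and near-identical copies in the table. Genes outside this rule are marked as chosen after their values were seen, apart from markers and the testis isozymes, which are listed as groups. Protein sequences were not used here.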

Additional observations from a re-analysis of the deposited data

How the results depend on the processing

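The fold changes depended little on the processing, and the calls depended on it more. Over 16 alternatives the median log2 fold change of the 10 lower glycolysis genes stayed between -1.13 and -1.02. The number without overlap between groups was 9 with scaling by total reads, with or without the 10 genes in the total, and leaving out a library cannot lower it. The number at an adjusted p under 0.05, 6 in the main test, was 7 with edgeR, 9 with DESeq2, 0 with limma without a trend, 3 without a low-count filter and 0 to 4 with each library left out. The low-count filter changes the number of genes tested, and leaving out a library reduces the samples. For glucose entry and upper glycolysis the count of 3 became 5 with DESeq2, 0 without a trend and 0 to 1 with a library left out. For pyruvate and lactate fate the count of 2 became 4 with DESeq2, 0 without a trend, 1 with scaling by total reads, with or without the 10 genes in the total, and 0 to 1 with a library left out. For reference genes the count of 0 became 2 with DESeq2. With the replicate number as a block, the counts were 0 for the 10 genes, 0 for upper glycolysis and 0 for pyruvate and lactate fate. The methods name no pairing of libraries by number. Same-numbered libraries had correlations of their deviations of -0.139, -0.123 and 0.023, a check that cannot exclude a pairing. The log2 fold change of Eno2 was -0.429 to 0.184 with a library left out, and its sign turned without Mock 1 (0.035), without Mock 2 (0.184) and without HIF-1α-KD 3 (0.034). Apart from what is stated here, the cause was not tested. Over all genes the number lower at an adjusted p was 46 in the main test, 47 with edgeR, 187 with DESeq2 (with 96 higher), 1 without a trend (1397 at an unadjusted p under 0.05), 0 with the block (1324) and 0 to 32 with a library left out. Depth limits Aldoc and Eno2 most, whose normalized counts were 19.2 to 216.7.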

Other observations

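Apart from the 10 lower glycolysis genes, the 6 tested genes whose log2 values over the 6 libraries were most like their mean were Mcemp1 (Pearson r 0.994), Vim, the intermediate filament vimentin (0.992), Gpi1, glucose-6-phosphate isomerase (0.992), Hadh, a mitochondrial enzyme of fatty acid oxidation (0.991), AC136513.6 (0.991) and Ccdc103 (0.988). The points are 6 libraries in 2 groups, so that r follows the group difference. Gpi1 was the only one of the 6 at an adjusted p under 0.05 in limma (log2 fold change -1.10 ± 0.16, adjusted p 0.0327). Vim had -0.66 ± 0.15 (limma adjusted p 0.196) and Hadh -0.55 ± 0.12 (0.172).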
